A study of Mus musculus with 8 samples.

Results

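Voltage-gated channels and their relatives set the electrical behaviour of a cell. Pore-forming alpha subunits of sodium and calcium channels (Scn and Cacna1 genes) let cations in when the membrane depolarizes, Kv potassium channels repolarize it, and tandem-pore (Kcnk) and inward rectifier (Kcnj) channels hold it at rest. Small cell lung cancer is a neuroendocrine tumour whose cells are known to be electrically excitable. The genes described here were all those in the deposited gene lists whose symbol begins with Kcn, Cacn, or Scn followed by digits and a or b, which gave 134 of 22056 genes. The rule takes whole families by name. It therefore holds channels that voltage does not gate (Kcnk, Kcnj and calcium-activated genes) and auxiliary subunits, and it was applied without using any measured level.

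The cells were N2N1G, a mouse small cell lung cancer line that carries a green fluorescent reporter, listed as eGFP, and expresses Mycl. They were grown as allografts of 1000000 cells for 3 weeks, in brain (2 libraries, direct injection), liver (3 libraries, reached through the tail vein) or subcutaneous flank (3 libraries, direct injection). Site and route cannot be told apart in comparisons with liver, all cells come from 1 line, and the labels give neither the age, sex or strain of the mice nor which animal each allograft came from. The p-values below therefore measure the spread between these libraries.

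Levels were read in tumour cells, taken as cells in which eGFP and Mycl made up at least 0.2% of the unique molecular identifiers (UMIs, each marking 1 captured RNA molecule). There were 2418 to 6276 such cells per library, with 21689091 to 62047017 UMIs. A level is given as counts-per-million (CPM) of all UMIs in the tumour cells of a library. Since the assay counts 3' ends, CPM is not divided by transcript length. All 9 listed tumour markers were detected at every site. Tumour cells of brain libraries also held more UMIs of several host marker lists: the 7 oligodendrocyte markers summed to 165 to 236 CPM in brain against 40.2 to 52.6 CPM elsewhere, the 7 astrocyte markers to 64.5 to 86.4 against 17.5 to 42.1 CPM, and the 11 microglia or macrophage markers to 61.7 to 395 against 1.87 to 35.3 CPM. All listed markers of these types were detected in brain, while Mog was at 0 in liver and subcutaneous libraries and Aqp4 at 0 in liver. Between 20 and 56 cell barcodes were shared by any pair of the 8 libraries.

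Promoter sequence is shown for 6 of the members whose levels in brain differed from another site and whose first start site had a reference window free of annotated exons. These are the 250 bases before the start, 5′ to 3′ on the strand of the gene, from RefSeq (GRCm38.p6, the assembly behind mm10). Capitals mark CAGCTG, an E-box of the kind that neuronal basic helix-loop-helix factors are known to bind. The motif reads the same on both strands.
Kcnk2, chr1:189402274-189402523, minus strand: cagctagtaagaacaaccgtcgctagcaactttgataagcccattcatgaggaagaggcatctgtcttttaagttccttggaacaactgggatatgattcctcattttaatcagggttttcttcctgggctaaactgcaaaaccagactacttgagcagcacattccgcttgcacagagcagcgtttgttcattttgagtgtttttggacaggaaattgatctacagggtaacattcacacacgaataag
Kcnip3, chr2:127522095-127522344, minus strand: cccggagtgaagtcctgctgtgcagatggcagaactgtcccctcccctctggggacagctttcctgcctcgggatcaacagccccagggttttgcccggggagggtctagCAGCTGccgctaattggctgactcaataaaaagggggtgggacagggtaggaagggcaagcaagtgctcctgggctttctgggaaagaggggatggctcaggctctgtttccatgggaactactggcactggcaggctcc
Kcnj10, chr1:172340960-172341209, plus strand: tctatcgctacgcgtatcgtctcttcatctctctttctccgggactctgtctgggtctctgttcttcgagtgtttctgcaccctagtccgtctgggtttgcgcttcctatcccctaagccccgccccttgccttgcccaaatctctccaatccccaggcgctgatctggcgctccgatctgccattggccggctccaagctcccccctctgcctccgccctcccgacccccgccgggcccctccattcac
Kcnj16, chr11:110967783-110968032, plus strand: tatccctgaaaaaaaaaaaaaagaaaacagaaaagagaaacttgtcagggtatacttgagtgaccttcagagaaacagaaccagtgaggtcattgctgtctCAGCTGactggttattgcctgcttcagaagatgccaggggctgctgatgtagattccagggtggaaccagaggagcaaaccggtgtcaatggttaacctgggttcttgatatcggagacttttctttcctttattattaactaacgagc
Kcnn3, chr3:89519914-89520163, plus strand: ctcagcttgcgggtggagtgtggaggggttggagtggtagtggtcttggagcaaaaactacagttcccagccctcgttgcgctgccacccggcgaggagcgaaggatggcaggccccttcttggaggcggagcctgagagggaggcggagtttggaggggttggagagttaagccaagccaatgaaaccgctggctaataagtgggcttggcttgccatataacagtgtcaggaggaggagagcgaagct
Cacna2d1, chr5:15934441-15934690, plus strand: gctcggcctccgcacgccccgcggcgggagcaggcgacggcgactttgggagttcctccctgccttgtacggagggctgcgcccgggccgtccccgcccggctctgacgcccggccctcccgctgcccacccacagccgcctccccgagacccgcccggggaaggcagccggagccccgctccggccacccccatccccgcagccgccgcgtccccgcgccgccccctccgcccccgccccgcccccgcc
The Cacna2d1 window was 82.4% G and C, the Kcnk2 window 42.4%. Among the windows shown, CAGCTG was present in those of Kcnip3 and Kcnj16 and not in the other 4. Windows at some later start sites of Kcnk2, which lie over annotated exons, did hold it. RefSeq windows of 300 bases, reaching 50 past the start, were held for 99 of the 134 members. Of their 135 windows, 37 (27.4%) contained CAGCTG, against 16.3% of 32851 windows of all genes. None of the 135 held TAATTA, a core bound by many homeodomain factors, and none held TGACGTCA, the cyclic AMP response element, which occurred in 5.29% and 1.79% of all windows. TTCAGCACC, part of the element bound by the neuronal repressor Rest, or its reverse complement, was in the window of 1 member (Kcnh6) and in 0.371% of all windows. Both strands were searched for each motif.

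As a class the channel genes were a small part of the tumour transcriptome. They made up 0.1% and 0.0974% of tumour cell UMIs in brain, 0.105%, 0.0944% and 0.0917% in liver, and 0.0936%, 0.0905% and 0.0951% in subcutaneous libraries, so the sites overlapped. Of the 134 members, 36 had a mean of at least 5 CPM over the 3 site means, 76 were below 1 CPM, and 8 had no UMI in any library. Those 8 were 4 Kv pore genes, and 1 each among Kv partners, inward rectifiers, tandem-pore genes and sodium channel pores. At the summed depth of these libraries, 0 counts allow up to 3. The 12 highest members held 67.4% of the channel UMIs, among them Kcnk2, Cacna1a, Kcnk1, Kcnip3, Kcnh3, Scn3a, Cacna2d1, Cacnb3, Cacng4 and Kcnc1. Within this total the summed levels of the families differed in their order by site, given here as values without a test. A sum can rest on few genes. The 10 calcium channel pore genes summed to 206 and 219 CPM in brain, 96.8, 80.7 and 66.2 CPM in liver, and 133, 67.5 and 65.6 CPM in subcutaneous tumours, so both brain libraries lay above all others. This difference lay mostly in Cacna1a and Cacna1c, while Cacna1b and Cacna1h were not higher in brain (levels below). The sum of the 14 tandem-pore genes went the other way, at 211 and 204 CPM in brain, 280 to 303 CPM in liver and 237 to 324 CPM in subcutaneous tumours. That difference lay mostly in 1 gene, Kcnk2. The 10 sodium channel pores summed to 62.7 and 65.8 CPM in brain, 70.4 to 87.2 CPM in liver and 60.1 to 82.4 CPM in subcutaneous tumours. Brain lay below liver, and the subcutaneous range overlapped both.

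**Figure D1:**
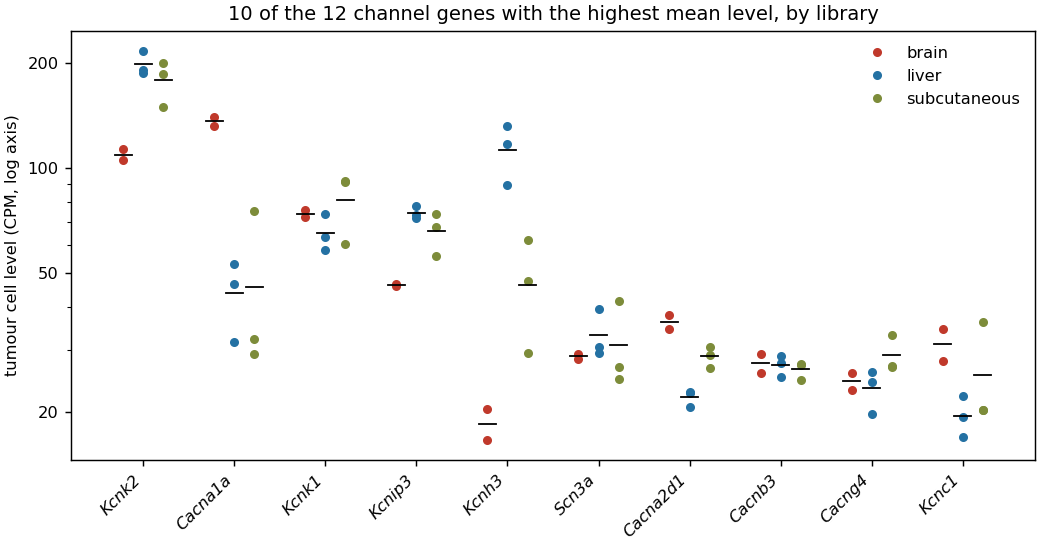
Level of 10 of the 12 highest channel genes in tumour cells, in CPM on a log axis, a point per library (2 brain, 3 liver, 3 subcutaneous) and a bar at the mean of each site. Brain points lie above the others for Cacna1a and Cacna2d1 and below them for Kcnk2, Kcnip3 and Kcnh3. Cacnb3 overlaps between sites, and the subcutaneous points of Scn3a span those of brain and liver.

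The comparison of sites asked which channel genes differed between tumour cells grown in brain and those grown elsewhere. In brain against liver, 28 of the 89 members tested were called by edgeR at an adjusted p under 0.05, 16 higher and 12 lower in brain. That is 31.5% of those tested, against 21.8% of all 13931 genes tested (13.2% higher and 8.56% lower). In brain against subcutaneous, 18 of 89 were called, 10 higher and 8 lower, which is 20.2% against 15.1% of all genes (8.94% higher and 6.13% lower). Both comparisons use the same brain libraries. These counts rest on few libraries. Against liver, 8 members were called without brain replicate 1, 9 without brain replicate 2 and 16 without liver replicate 2. Against subcutaneous, 2 were called without brain replicate 1 and 2 without brain replicate 2, 6 and 5 without subcutaneous replicates 2 and 3, and 31 without subcutaneous replicate 1. Over all genes, 1535 of 13867 were called against liver without liver replicate 2. Against subcutaneous these were 701 of 13882 and 659 of 13885 without subcutaneous replicates 2 and 3, and 4754 of 13856 without replicate 1. With 1 brain library left, its spread is assumed to be that of the other sites. Against liver 6 members were tested and called whichever single library was left out, among them Cacna2d1, Kcnh3, Kcnip3, Kcnj10 and Kcnk2, and against subcutaneous 1, Kcnj10. Kcnj10 passed the count filter through the brain libraries alone, so its calls support nothing about how stable these differences are. The same holds for Kcna6, Kcnj16, Scn2b and Cacng8, which are also counted among the calls higher in brain than in liver. The other 22 calls against liver and 17 against subcutaneous were lost, or could not be tested, without at least 1 library. The median log2 fold change of the tested members was -0.02 against liver and 0.05 against subcutaneous, where that of all genes tested was 0.00 in both. The other 45 members had too few counts to be tested, with at most 46 UMIs over all libraries.

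Of the 10 calcium channel pore genes 7 were tested, and 2 were higher in brain than at both other sites. Cacna1a, on chromosome 8 (84388440-84640246), encodes the P/Q-type pore that triggers transmitter release at many synapses. It was at 132 and 140 CPM in brain, 53.1, 46.5 and 31.6 CPM in liver, and 75.2, 32.4 and 29.2 CPM in subcutaneous tumours. Both brain libraries were above every other library, with subcutaneous replicate 1 the nearest. By edgeR it was higher in brain by 1.52 ± 0.41 (log2, SE) against liver (adjusted p = 0.0342) and by 1.58 ± 0.41 against subcutaneous (adjusted p = 0.0388). The call against liver was lost when any single brain or liver library was left out (log2 fold change 1.32 to 1.69, edgeR, adjusted p = 0.0658 to 0.1003). That against subcutaneous was lost without either brain library, liver replicate 1 or 2, or subcutaneous replicate 2 or 3 (1.36 to 1.65, adjusted p = 0.0562 to 0.1164).

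Cacna1c, on chromosome 6 (118587240-119196418), encodes an L-type pore that couples depolarization to gene expression in neurons. Its levels were 49.6 and 53.1 CPM in brain, 8.93, 7.71 and 7.38 CPM in liver, and 23.3, 5.42 and 5.51 CPM in subcutaneous tumours. Brain stood above the rest, and again subcutaneous replicate 1 lay between brain and the other 5 libraries. The edgeR difference was 2.56 ± 0.60 against liver (adjusted p = 0.0226) and 2.18 ± 0.59 against subcutaneous (adjusted p = 0.0473). The first call was lost without any single brain or liver library (2.49 to 2.66, edgeR, adjusted p = 0.0565 to 0.0684). The second was lost without any single library other than subcutaneous replicate 1 (1.87 to 2.26, adjusted p = 0.0689 to 0.1263). The other pores with a mean of at least 5 CPM, named after their values were seen, did not pass the test: Cacna1b, the N-type pore, was at 9.91 and 10.3 CPM in brain and 11.2 to 16.1 CPM elsewhere, and Cacna1h, a T-type pore, at 9.82 and 10.8 against 10.1 to 14.9 CPM.

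Among the 16 calcium channel partners, 3 were higher and 1 lower in brain than in liver. Cacna2d1, the alpha-2-delta subunit that carries calcium channels to the surface (promoter shown above), was at 37.9 and 34.4 CPM in brain, 22.8, 20.6 and 22.6 CPM in liver, and 26.6, 30.7 and 29.1 CPM in subcutaneous tumours. Brain did not overlap the other sites, and the gain of 0.60 ± 0.11 against liver passed in edgeR (adjusted p = 0.0057), while that of 0.32 ± 0.11 against subcutaneous did not (adjusted p = 0.0698). Cacng2, known as stargazin, which also escorts AMPA receptors to synapses, was at 4.52 and 4.99 CPM in brain, 0.769 to 1.00 CPM in liver, and 2.69, 0.741 and 0.963 CPM in subcutaneous tumours, higher in brain by 2.29 ± 0.47 and 1.72 ± 0.47 (edgeR, adjusted p = 0.0109 and 0.0388). The call of Cacng2 against liver was lost without brain replicate 1 or 2. That against subcutaneous was lost without any single library other than subcutaneous replicate 1. Cacnb3, a beta subunit, overlapped between sites at 24.6 to 29.2 CPM. Cacng1 was low, at 0.103 to 0.138 CPM in brain and 0.293 to 0.547 CPM in liver, and its call lay just inside the threshold (edgeR, adjusted p = 0.0499). It was lost without any single library other than subcutaneous replicate 1.

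Of the 40 Kv pore genes, 26 were tested, and 5 were higher and 2 lower in brain than in liver. Kv pores called higher in brain than in liver, all at low levels, included Kcnq3, which contributes to the M-current that damps firing, and Kcna2, an axonal delayed rectifier. Kcnq3 was at 1.98 and 2.48 CPM in brain, 0.259 to 0.376 CPM in liver, and 2.18, 0.596 and 0.771 CPM in subcutaneous tumours, so it overlapped the latter. It was higher than in liver by 2.62 ± 0.54 (edgeR, adjusted p = 0.0106), a call lost without brain replicate 2. Kcna2 was at 1.43 and 0.956 CPM in brain and 0.125 to 0.576 CPM elsewhere, higher by 2.69 ± 0.53 against liver and 1.77 ± 0.51 against subcutaneous (edgeR, adjusted p = 0.00899 and 0.0454). In cells with no more than 2 host marker UMIs both calls were lost, at 2.00 ± 0.77 and 1.54 ± 0.73 (edgeR, adjusted p = 0.0916 and 0.178). With all tumour cells, the call of Kcna2 against liver was lost without brain replicate 1. That against subcutaneous was lost without any single library other than subcutaneous replicate 1.

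Kcnh3, on chromosome 15 (99224861-99242817), a voltage-gated potassium channel of the ether-a-go-go family found mainly in forebrain neurons, was lowest in brain. It was at 16.6 and 20.4 CPM in brain, 29.5, 47.5 and 62.1 CPM in subcutaneous tumours, and 132, 118 and 89.3 CPM in liver. The 3 sites did not overlap. By edgeR it was lower in brain than in liver, by -2.73 ± 0.32 (adjusted p = 0.00153), lower in brain than in subcutaneous tumours, by -1.32 ± 0.31 (adjusted p = 0.0244), and higher in liver than in subcutaneous tumours, by 1.40 ± 0.26 (adjusted p = 0.0312). The call against subcutaneous was lost without brain replicate 1 or 2 or subcutaneous replicate 2 or 3 (-1.49 to -1.06, edgeR, adjusted p = 0.063 to 0.157). The call of liver against subcutaneous was lost without brain replicate 1 or 2, liver replicate 1 or 2 or subcutaneous replicate 2 (1.27 to 1.42, adjusted p = 0.0596 to 0.1328). Its relative Kcnh8 was at 7.05 and 7.16 CPM in brain, 11.3 to 16.7 CPM in liver and 10.7 to 13.8 CPM in subcutaneous tumours. Kcnh8 was lower in brain by -1.10 ± 0.20 and -0.82 ± 0.20 (edgeR, adjusted p = 0.00626 and 0.0256). Its call against liver was lost without brain replicate 1, and that against subcutaneous without brain replicate 1 or 2 or subcutaneous replicate 2 or 3.

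The Kv partners included 1 highly expressed gene that was lower in brain. Kcnip3, a calcium-binding protein that modulates Kv4 channels and is also known as the transcriptional repressor DREAM (promoter shown above), was at 45.9 and 46.5 CPM in brain, 72.1, 78.2 and 73.6 CPM in liver, and 56.0, 67.7 and 74.0 CPM in subcutaneous tumours. Brain was below every other library, by -0.81 ± 0.12 and -0.51 ± 0.12 (edgeR, adjusted p = 0.00349 and 0.0263). The second call was lost without brain replicate 1 or 2 or subcutaneous replicate 2 or 3 (-0.53 to -0.42, edgeR, adjusted p = 0.106 to 0.168). Kcnip4, of the same family, was at 1.94 and 0.904 CPM in brain, 3.26, 3.74 and 3.06 CPM in liver and 1.42 to 1.68 CPM in subcutaneous tumours. Liver was the high site: edgeR gave -1.39 ± 0.32 for brain against liver (adjusted p = 0.0152) and 1.22 ± 0.27 for liver against subcutaneous (adjusted p = 0.0464). The first of these Kcnip4 calls was lost without brain replicate 2 or liver replicate 2. The second was lost without any single liver library or subcutaneous replicate 2 or 3. Kcne1l, on the X chromosome, was higher in brain than in liver by 4.01 ± 1.00 (edgeR, adjusted p = 0.0215), at 0.507 and 1.01 CPM against 0 to 0.0863 CPM. Its call was lost without brain replicate 1 or 2 or liver replicate 1 or 2.

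The tandem-pore genes were led by Kcnk2, on chromosome 1 (189207930-189402273; promoter shown above), which encodes TREK-1, a background channel opened by stretch, heat and lipids. This gene had the highest mean level of all members. It was at 113 and 105 CPM in brain, 218, 187 and 192 CPM in liver, and 150, 186 and 201 CPM in subcutaneous tumours. Brain lay below the other 6 libraries, which overlapped each other. The edgeR difference was -0.98 ± 0.14 against liver (adjusted p = 0.00245) and -0.71 ± 0.14 against subcutaneous (adjusted p = 0.0124). The latter call was lost without brain replicate 1 or 2 or subcutaneous replicate 3 (-0.75 to -0.62, edgeR, adjusted p = 0.0512 to 0.0951). Kcnk10, the closely related TREK-2, was at 6.18 and 4.96 CPM in brain, 7.43 to 7.78 CPM in liver and 7.55 to 10.3 CPM in subcutaneous tumours, lower in brain by -0.58 ± 0.17 and -0.72 ± 0.17 (edgeR, adjusted p = 0.0393 and 0.0246). Its call against liver was lost without any single library other than subcutaneous replicate 1, and that against subcutaneous without brain replicate 1 or 2 or subcutaneous replicate 2 or 3.

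Kcnk1, the tandem-pore gene with the next highest level, did not pass in any site comparison, at 72.2 and 75.8 CPM in brain, 58.3 to 74.0 CPM in liver and 60.7 to 92.0 CPM in subcutaneous tumours. Kcnk5 and Kcnk16 were lower in brain than in liver by -2.04 ± 0.62 and -0.97 ± 0.26 (edgeR, adjusted p = 0.0445 and 0.03). The call of Kcnk5 was lost without any single library other than subcutaneous replicate 1 (-2.76 to -1.63). That of Kcnk16 was lost without brain replicate 1 or 2 or liver replicate 1 or 2 (-1.27 to -0.73). Kcnk3, the acid-sensitive TASK-1, named after its values were seen, was higher in brain than in liver by 0.85 ± 0.25 (edgeR, adjusted p = 0.0397). Brain was at 6.09 and 4.68 CPM, inside the subcutaneous range of 4.54 to 7.27 CPM, and liver at 2.33 to 3.24 CPM. The call of Kcnk3 was lost without any single brain or liver library.

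Of the 10 sodium channel pores 6 were tested, with 2 lower in brain than in liver and 0 called against subcutaneous (edgeR). Scn3a, a pore typical of immature neurons and the highest sodium channel here, was not called in either brain comparison. It was at 28.4 and 29.3 CPM in brain, 29.5 to 39.5 CPM in liver and 24.8 to 41.6 CPM in subcutaneous tumours, a range that spans the other sites. Scn9a, the pore of pain-sensing neurons and neuroendocrine cells, was at 14.5 and 15.6 CPM in brain, 18.2 to 20.6 CPM in liver and 15.5 to 16.8 CPM in subcutaneous tumours. It was lower in brain than in liver by -0.49 ± 0.11 (edgeR, adjusted p = 0.0146), a call lost without brain replicate 1 or 2. In brain against subcutaneous, 2 calcium-activated small-conductance channels were lower: Kcnn3 (promoter shown above) at 0.738 and 0.517 CPM against 2.18, 2.21 and 1.68 CPM (-1.71 ± 0.31, edgeR, adjusted p = 0.00988), and Kcnn1 at 3.32 and 3.88 against 5.32, 5.17 and 6.05 CPM (-0.61 ± 0.17, edgeR, adjusted p = 0.0411). Neither overlapped. Among inward rectifiers Kcnj14 was lower in brain than in subcutaneous tumours by -1.68 ± 0.45 (edgeR, adjusted p = 0.036), and Kcnj3, a G protein-gated channel, was lower than in liver by -0.80 ± 0.24 (edgeR, adjusted p = 0.0433). The calls of Kcnn1, Kcnj14 and Kcnj3 were each lost without any single library other than subcutaneous replicate 1. That of Kcnn3 was lost without brain replicate 2.

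**Figure D2:**
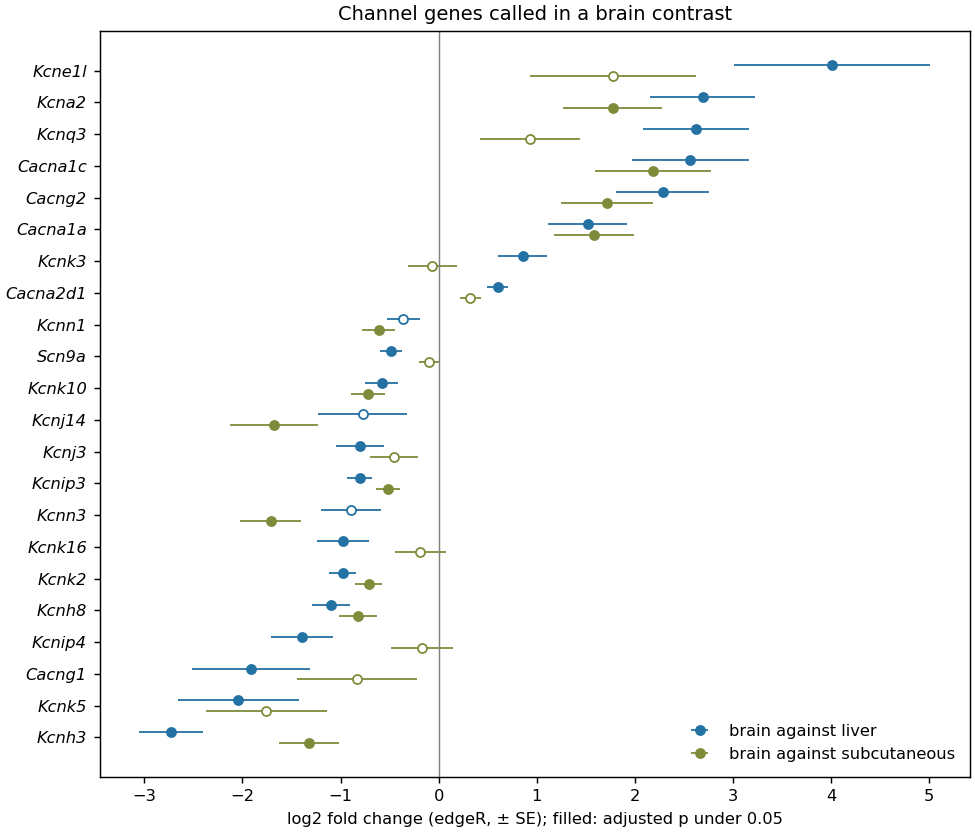
Log2 fold changes (edgeR, with SE bars) of 22 channel genes called in brain against liver (blue) or brain against subcutaneous (green). Genes with at most 3 UMIs in a comparison site are not drawn. Filled points passed an adjusted p of 0.05: Kcnh3, Kcnh8, Kcnk2, Kcnk10 and Kcnip3 are filled on the left in both comparisons, and Cacna1a, Cacna1c, Cacng2 and Kcna2 on the right.

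A separate group of called members was nearly absent outside brain and rested on few UMIs. Kcnj10, an inward rectifier known chiefly from glia, where it clears potassium (promoter shown above), had 42 and 73 UMIs in the brain libraries, 1, 2 and 0 in liver, and 0 in each subcutaneous library. Over the group it was 91.1-fold higher than in liver (95% exact binomial interval 30.4 to 448, counting error only) and at least 98.8-fold higher than in subcutaneous tumours, taken against a floor of 3 counts over the group. Kcnj16, which forms channels with Kcnj10, had 12 and 13 UMIs in the brain libraries, 0 over the liver libraries and 1 over the subcutaneous ones, which is at least 19.8-fold higher than in liver.

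Kcna6, a Kv pore, had 10 and 15 UMIs in brain and 0 in the other 6 libraries, at least 19.8-fold higher than in liver and at least 21.5-fold higher than in subcutaneous tumours. Scn2b, a sodium channel partner, had 8 and 11 UMIs in brain, 0 in liver, and 2, 1 and 1 in subcutaneous tumours. Cacng8 had 5 and 10 UMIs in brain and 1, 0 and 0 in liver. Genes this low passed the count filter through brain alone, and Kcnj16 could not be tested without either brain library or without the host-led clusters described below.

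Cells under the tumour threshold in the same brain libraries held these genes at higher levels, except Cacng8, which had 0 UMIs there. Kcna6 had 8 and 5 UMIs in those cells and Scn2b 3 and 2. Kcnj10 was at 11.9 and 22.6 CPM there, against 1.94 and 1.89 CPM in brain tumour cells, and Kcnj16 at 5.12 and 3.43 CPM against 0.553 and 0.336 CPM. The part of host RNA in these members was not tested.

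In liver against subcutaneous, 2 of 89 members were called, Kcnh3 and Kcnip4, both higher in liver (values above). That is 2.25% against 2.83% of all genes tested (0.933% higher and 1.9% lower), a share near the background. At an unadjusted p under 0.05 there were 21, and DESeq2 called 8 of 126, beside 1048 of 17925 genes. The count was 0 by edgeR without liver replicate 1, liver replicate 2 or subcutaneous replicate 2. There 17, 12 and 15 members had an unadjusted p under 0.05, and 57, 33 and 63 of all genes were called. Without subcutaneous replicate 1 the count was 7 of 88, beside 1024 of 13856 genes.

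Genes that work with these channels were followed in a list of 43, such as the Hcn pacemaker channels, the sodium leak channel complex and calcium channel regulators. Of the 35 tested, 6 were higher and 3 lower in brain than in liver, and 3 higher and 2 lower than in subcutaneous tumours. These are 9 of 35 beside 21.8% of all genes called, and 5 of 35 beside 15.1%, both near the background. The 3 examples here were chosen after their values were seen. Dpp10, a partner of Kv4 channels, was at 8.16 and 9.82 CPM in brain, 1.36 to 1.72 CPM in liver and 2.19 to 5.80 CPM in subcutaneous tumours, higher by 2.39 ± 0.38 and 1.38 ± 0.37 (edgeR, adjusted p = 0.00394 and 0.0378). Hcn4 was higher and Hcn3 lower in brain than in liver, by 0.96 ± 0.24 and -0.84 ± 0.19 (edgeR, adjusted p = 0.0209 and 0.0153).

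The tumour cells themselves fell into 19 clusters, formed without the channel genes. A cluster is called En1-led where at least 2 of En1, Des, Hoxd9, Hoxd10 and Hoxd11, genes of patterning and muscle-type filaments, were among its 15 leading genes; these were clusters 2, 5 and 7. Clusters 1, 8, 13, 14 and 18 had at least 4 host markers among their leading genes and are called host-led. En1-led cells made up 30.1% and 39.1% of tumour cells in brain, 2.31%, 1.48% and 1.17% in liver, and 10.3%, 2.12% and 2.05% in subcutaneous tumours. Host-led cells made up 41.4% and 15.8% in brain, 9.97%, 19.7% and 16.3% in liver, and 10.5%, 8.43% and 2.59% in subcutaneous tumours. The one subcutaneous library with a larger En1-led share, replicate 1, is the same one that stood nearest to brain for Cacna1a and Cacna1c. The make-up of the En1-led class differed between sites. Cluster 7, with Des and Hoxd11 but not En1 among its leading genes, held 87, 57 and 50 of these cells in liver. In brain it held 49 and 28, and clusters 2 (508 and 1146) and 5 (171 and 415) held most. In subcutaneous tumours cluster 7 held 37, 100 and 68. Site and cluster therefore cannot be told apart within the class. Levels in clusters are described without a test.

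Cacna1a was higher in the En1-led cells of every library. In them it was at 285 and 273 CPM in brain, 218, 211 and 210 CPM in liver, and 279, 157 and 158 CPM in subcutaneous tumours. In tumour cells that were neither En1-led nor host-led it was at 65.9 and 57.8, then 52.0, 46.8 and 31.8, then 55.0, 30.9 and 27.4 CPM. In those other cells both brain libraries lay above the remaining 6, while in En1-led cells brain overlapped the subcutaneous range.

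Cacna2d1 was also higher in the En1-led cells of every library, at 59.4 to 162 against 18.4 to 29.2 CPM. The En1-led cells of brain, at 74.6 and 59.4 CPM, were the lowest of all 8 libraries. Cacna2d1 was at 86.6 ± 25.1 CPM (SD, n = 3 libraries) in cluster 2 and 140 ± 37.9 CPM (n = 7) in cluster 7. Cacna1c was higher in En1-led cells of every library and also separated brain from the other sites within each class, where the mix of clusters differed by site. It was at 100.5 ± 45.8 CPM (n = 3) in cluster 2 and 39.6 ± 25.8 CPM (n = 7) in cluster 7. In En1-led cells it was at 109 and 95.6 CPM in brain against 23.7 to 43.0 CPM elsewhere, and in the other cells at 35.2 and 33.6 CPM against 5.03 to 22.1 CPM.

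Kcnk2 and Kcnh3 ran the other way. Kcnk2 was at 25.5 to 116 CPM in En1-led cells and 137 to 226 CPM in the other cells, where brain (138 and 137 CPM) stayed below liver (201 to 226 CPM) and subcutaneous tumours (164 to 204 CPM). Kcnh3 was at 10.0 to 54.5 CPM in En1-led cells and 20.7 to 137 CPM in the other cells, lower in En1-led cells of every library, with liver highest in both kinds of cell. Over the 36 members with a mean of at least 5 CPM, 6 were higher in En1-led cells in all 8 libraries and 11 were lower in all 8. Among all 9624 genes at that level, 13.4% were higher and 18.9% lower in all 8.

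**Figure D3:**
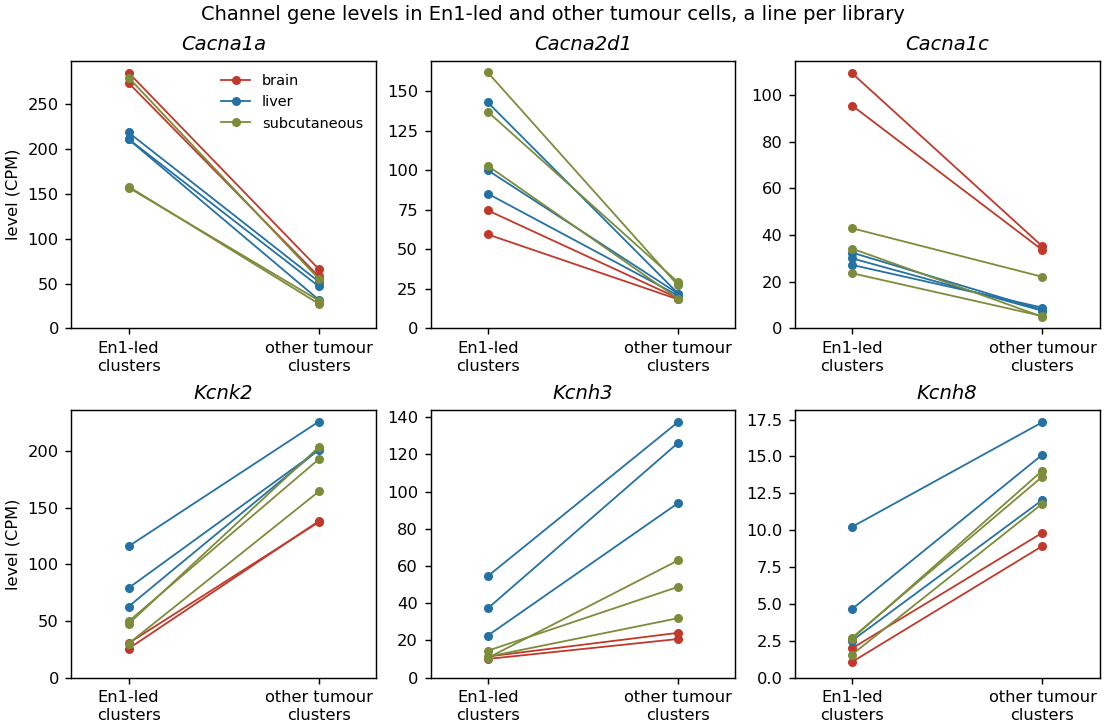
Level (CPM) of 6 channel genes in En1-led tumour clusters and in tumour clusters neither En1-led nor host-led, a line per library coloured by site. All 8 lines fall for Cacna1a, Cacna2d1 and Cacna1c and rise for Kcnk2, Kcnh3 and Kcnh8, and the liver lines lie highest for Kcnh3.

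Leaving out the En1-led clusters changed which members were called between sites. In brain against liver 12 of 85 members were called (14.1%), where 8.43% of all genes were called. Of these members 11 had been called with all tumour cells. Among them Kcna6, Kcnj10 and Kcnj16 had 0 to 3 UMIs over the liver libraries. They entered the test through brain alone, so the filter favoured their calls. In brain against subcutaneous 4 of 85 were called, beside 5.6% of all genes, all 4 of them called before: Kcna6, Kcnj10, Kcnj16 and Kcnn3. All but Kcnn3 had 0 or 1 UMI over the subcutaneous libraries and entered the test through brain alone, so that Kcnn3, lower in brain, is the one call here that the filter did not favour. In liver against subcutaneous 3 of 85 were called, beside 3.02% of all genes.

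Kcnh3 and Kcnk2 stayed lower in brain than in liver without these clusters, by -2.40 ± 0.31 and -0.48 ± 0.12 (edgeR, adjusted p = 0.00481 and 0.0385). The differences for Cacna1a and Cacna1c against liver were 0.52 ± 0.30 and 1.65 ± 0.59 and no longer passed (edgeR, adjusted p = 0.322 and 0.135). Cacna2d1 moved from 0.60 to -0.10 ± 0.18 (edgeR, adjusted p = 0.771). Cacng2 went to 0.31 ± 0.35 against liver and 0.56 ± 0.35 against subcutaneous, and neither call remained (edgeR, adjusted p = 0.634 and 0.381). Kcnk10 went to -0.07 ± 0.15 and -0.27 ± 0.15 (edgeR, adjusted p = 0.81 and 0.333), and Kcnh8 to -0.57 ± 0.18 and -0.35 ± 0.18 (edgeR, adjusted p = 0.0799 and 0.274). Scn9a was at -0.09 ± 0.10 against liver (edgeR, adjusted p = 0.619). Against subcutaneous Kcnh3, Kcnk2 and Kcnip3 no longer passed either, at -1.04, -0.26 and -0.40 (edgeR, adjusted p = 0.0714, 0.22 and 0.0955). Without the host-led clusters, in contrast, Cacna1a, Cacna1c and Cacna2d1 stayed called against liver, by 1.69, 2.84 and 0.73 (edgeR, adjusted p = 0.0144, 0.00868 and 0.00253). There 31 of 88 members were called against liver, where 3787 of 13652 genes were called. Against subcutaneous 21 of 88 were called, beside 2803 of 13652 genes.

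Over all clusters with at least 30 cells in a library, 27 of the 36 members differed by at least 4-fold between their highest and lowest cluster mean. The share over all genes was not taken, so this count cannot be set against other genes. The 8 with the widest range included Cacna1c, Cacna1a, Cacng7, Scn3a, Kcnk2 and Scn9a. Cluster 14, led by haemoglobin and liver plasma protein genes and with a low median of 4566 UMIs, was the lowest for Cacna1a, Scn3a and Scn9a. Cluster 18, led by haemoglobin genes with a median of 2254 UMIs, was the highest for Cacng7, Kcnk2 and Scn9a.

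Between the remaining clusters the contrast was still wide. Cacna1a was at 318 ± 4.73 CPM (SD, n = 3 libraries) in cluster 2 and 245 ± 74.8 CPM (n = 7) in cluster 7. Cacna1c peaked in cluster 2 but was also at 61.1 ± 24.7 CPM (n = 7) in cluster 12, led by Islr2 and Tfap2a, and was at 2.14 ± 1.94 CPM (n = 8) in cluster 15, led by the mitotic genes Pttg1, Cenpa and Ccnb2. Scn3a was highest in cluster 6, led by Tfap2a and cell cycle genes, at 67.6 ± 8.54 CPM (n = 8). Kcnk2 was at 286 ± 16.8 CPM (n = 6) in cluster 16, whose leading genes include Rem2 and the sterol synthesis gene Idi1, and at 27.5 ± 3.87 CPM (n = 3) in cluster 2. Kcnh3 was at 120 ± 44.3 CPM (n = 7) in cluster 19, led by Sfrp5, which held 1453, 1442 and 1315 cells of the liver libraries and 3 and 63 of the brain libraries.

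**Figure D4:**
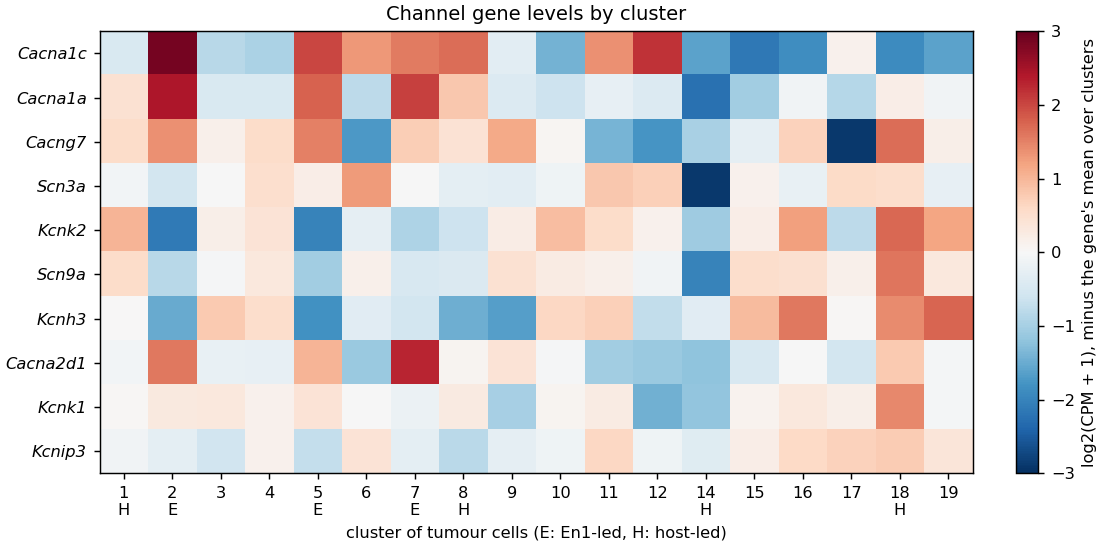
Cluster means of 10 channel genes over the 18 clusters with at least 30 cells in a library, as log2(CPM + 1) minus the mean of the gene over clusters. Clusters 2, 5 and 7 (E, En1-led) are red for Cacna1a, Cacna1c and Cacna2d1 and blue for Kcnk2, and cluster 14 (H, host-led) is blue for most genes.

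Tumour cells were also compared by cycling state. After thinning each cell to 3000 UMIs, cells with at least 4 UMIs over a list of G2/M genes were called G2/M-high and cells with at most 1 G2/M-low, and the full counts of both classes were summed per library. The 48 to 180 tumour cells per library under 3000 UMIs were left out, and the median UMIs per cell ran from 9903 to 11785.5 in the high and 7487 to 10259 in the low class. Of the 65 members tested, 42 were called by edgeR with library as a block, 14 higher and 28 lower in G2/M-high cells. This is 64.6% against 61.3% of all 12202 genes tested (28.4% higher and 32.9% lower), a total near the background. The median log2 fold change was -0.12 for the members and -0.02 for all genes.

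Kcnk2 was at 87.2 to 166 CPM (median 134) in G2/M-high and 119 to 263 CPM (median 223) in G2/M-low cells, and lower in G2/M-high cells in 8 of 8 libraries (-0.69 ± 0.05, edgeR, adjusted p = 1.17e-06). Among the 8 with the largest fall, Kcnn1, Cacna1c, Kcnq1, Cacna1a, Kcnh3 and Kcnf1 were likewise lower in 8 of 8 libraries, by -0.92 to -0.63. All 4 calcium channel pore genes called were lower, Cacna1a by -0.66 ± 0.04 (edgeR, adjusted p = 1.54e-13).

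Apart from that of Kcnq3, the gains were smaller than the falls above. Scn3a was at 31.1 to 51.0 CPM (median 34.6) in G2/M-high and 20.6 to 34.1 CPM (median 26.1) in G2/M-low cells, higher in 8 of 8 libraries (0.51 ± 0.04, edgeR, adjusted p = 6.79e-11). Kcnq3 was higher by 0.74 ± 0.17 (edgeR, adjusted p = 0.000679) at levels of 0.198 to 3.20 CPM. Kcnab1, Scn3b, Cacng4, Kcnh7, Kcnab3 and Cacnb3, all but Kcnh7 auxiliary subunits, were higher by 0.27 to 0.40. The call of Kcnab1 was lost in 10 of 14 alternatives, among them leaving out liver replicate 1 or 2 or any subcutaneous library (0.29 to 0.44, edgeR, adjusted p = 0.0536 to 0.159), leaving out the host-led clusters, and DESeq2. En1-led cells were a smaller share of the G2/M-high class in each library, at 25.4% and 35.2% in brain against 37.1% and 42.0% of the G2/M-low class, and 0.496% to 8.38% against 1.85% to 11.6% elsewhere. Host-led cells were also a smaller share of the G2/M-high class in brain, at 32.1% and 9.37% against 40.8% and 19.1%, but a larger one in the other 6 libraries, at 2.23% to 24.4% against 1.44% to 13.4%. Without the host-led clusters 38 of 64 members were called, beside 7034 of 12093 genes, again near the background. The part of the En1-led share in the lower levels of Cacna1a and Cacna1c was not tested.

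**Figure D5:**
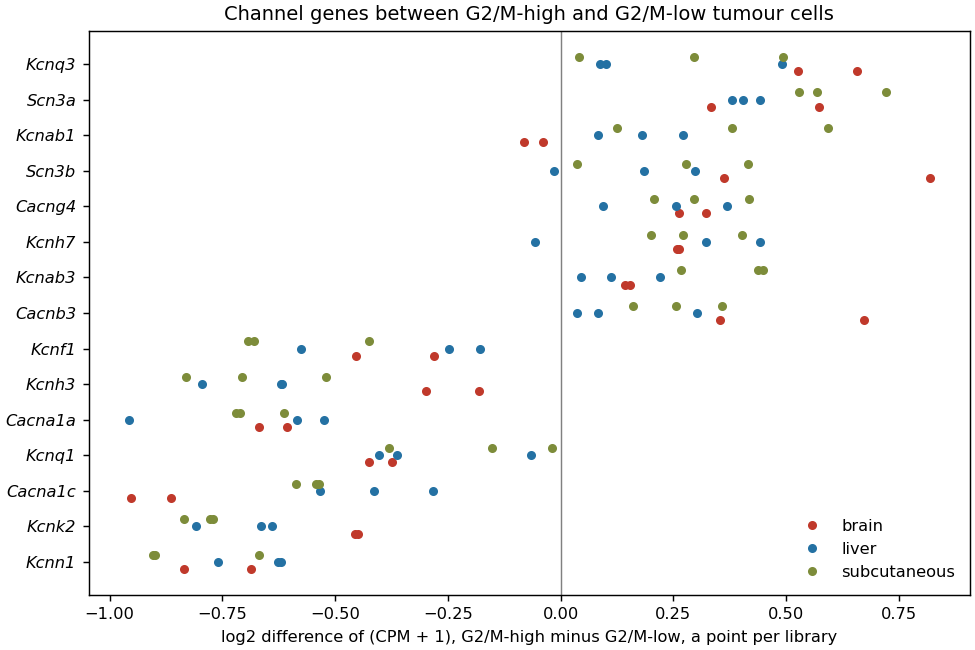
Difference of log2(CPM + 1) between G2/M-high and G2/M-low tumour cells, a point per library coloured by site, for the 8 channel genes with the largest rise and 7 of the 8 with the largest fall. All 8 points of Scn3a lie right of zero and all points of the lower 7 genes left of it, and the brain points of Kcnk2 and Kcnh3 lie closest to zero in their rows.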

How the data were processed

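Single-cell RNA was captured by a 10x Genomics 3' assay from sorted cells of 8 allografts, 1 library each. The authors deposited, per library, a matrix of whole-number UMI counts per gene and cell. Per the submitters' processing notes Cell Ranger, STAR and mm10 were used, and the matrix headers give software version 3.0.0. A cell needed 500 detected genes, and no more than 10% of its UMIs from mitochondrial genes. No doublet removal was applied. Tumour cells were those with at least 0.2% of UMIs from eGFP and Mycl, and 32 to 97 cells per library lay near that limit.

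Raw counts were summed per library and tested with edgeR 4.0.16 (R 4.3.3): TMM scaling, filterByExpr, robust quasi-likelihood fit, site means over all 8 libraries, Benjamini-Hochberg adjustment over the 13931 genes tested, threshold 0.05. G2/M classes used 20 genes and a library block over 12202 genes. DESeq2 1.42.0 was an alternative, as were other filters, cell choices and left-out libraries. Adjusted p-values from edgeR are given with log2 fold changes and SE. Clusters came from scanpy 1.11.5 (2000 variable genes without the channel genes, 30 components, 15 neighbours, Leiden resolution 1), and are described without a test because the other genes of the same cells formed them. A cluster level is the mean over libraries with at least 30 of its cells. Gene positions are from GENCODE on GRCm38.

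The fits were tested on simulated counts with known changes placed in the brain libraries or in the G2/M-high class.

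The members and gene lists were chosen with earlier results of these data known. Genes named with values were the 12 highest members, up to 10 per direction and site comparison and 8 per direction for G2/M by fold change among those called, and the 8 with the widest range between clusters. A few others are marked in the text. Some genes that the rule names are not reported here, while counts and sums include them.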

Additional observations from a re-analysis of the deposited data

Results flagged for a closer look

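The fall of Cacna1a in G2/M-high cells was larger in liver replicate 3, at -0.957 (log2 of CPM + 1), than in the other 2 liver and the remaining libraries, where it ran from -0.72 to -0.52. That library lay apart from the other 7 in a gap test of 16 genes. Chance flags about 1 in 20 groups.

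The difference between G2/M-high and G2/M-low cells itself differed between sites for 5 of the 65 members tested, by the interaction of class and site in edgeR, where 4.83% of all genes passed. Kcnk2 differed most clearly (adjusted p = 9.31e-05), at -0.46 to -0.45 in the 2 brain libraries, -0.81 to -0.64 in liver and -0.84 to -0.77 in subcutaneous tumours. Kcnh3 (edgeR, adjusted p = 0.0157) also fell less in brain, at -0.30 to -0.18 against -0.80 to -0.62 in liver and -0.83 to -0.52 in subcutaneous tumours. Cacna1c (edgeR, adjusted p = 0.0362) fell more in brain, at -0.95 to -0.86 against -0.53 to -0.28 in liver and -0.59 to -0.54 in subcutaneous tumours. Kcnh5, a low-level potassium channel gene (edgeR, adjusted p = 0.0289), was at 0.10 to 0.51 in subcutaneous tumours and -0.57 to -0.34 in liver, with the brain libraries at -0.36 and 0.26. Cacna1h (edgeR, adjusted p = 0.0493) was at -0.39 to -0.32 in subcutaneous tumours, -0.10 to 0.13 in liver and -0.19 to -0.10 in brain.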

How the results depend on the processing

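Counts of members called by edgeR depended on which cells and libraries entered, and so did the counts over all genes. In brain against liver, 3032 of 13931 genes were called, 1614 of 9594 at a mean of at least 5 CPM and 4557 of 13856 without subcutaneous replicate 1. Against subcutaneous, 2099 of 13931 were called, 1107 of 9594 at that mean and 4754 of 13856 without that library. With only the 2 sites compared 728 of 13658 were called, and with the replicate block 1378 of 13931. For brain against liver the count of 28 of 89 tested became 10 of 35 when genes needed an average of 5 CPM or more, 12 without the En1-led clusters, and ran from 8 to 38 when single libraries were left out. For brain against subcutaneous the count of 18 of 89 became 8 of 35 at that average, 7 with the replicate block, 6 with only the 2 sites compared and 4 without the En1-led clusters, and ran from 2 to 31 with single libraries left out. For liver against subcutaneous the count of 2 of 89 became 1 of 35 at that average, 1 with the replicate block (Kcnk3, lower in liver), 4 in cells with no more than 2 host marker UMIs and 8 by DESeq2, and ran from 0 to 7 with single libraries left out. For G2/M the count of 42 of 65 (64.6%) became 26 of 36 (72.2%) at that average and 10 without the library block, and ran from 36 to 43 with single libraries left out. Over all genes the G2/M calls were 7483 of 12202, then 6319 of 9597 at that average and 2218 of 12202 without the library block. With the replicate block 23 members were called for brain against liver, beside 2482 of 13931 genes. Correlations of same-numbered libraries in their deviations from the site means ran from -0.251 to 0.262. Those of differently numbered libraries of 2 sites ran from -0.269 to 0.298. With 2 or 3 libraries per site, such correlations cannot show whether equal numbers mark paired libraries. The fold change of Cacna2d1 for brain against liver turned from 0.60 to -0.10 without the En1-led clusters, which was the only sign change among 1267 values of named members under alternatives, 266 of which lost the call. Kcnh3, Kcnip3 and Kcnk2 for brain against liver kept their calls in every alternative run. Those of Kcnj10 were kept too, but it passed the count filter through brain alone. Leaving out the En1-led or the host-led clusters was chosen after seeing the data. Depth left 45 members, each with at most 46 UMIs in all, untested. Of these Kcna1 (25 UMIs, 23 of them in brain) was called in both brain comparisons with no filter on low counts. Cells under the tumour threshold held more of it, at 51 and 38 UMIs (10.9 and 26.1 CPM) in brain replicates 1 and 2. The part of host RNA in this call was not tested.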
